A study of Mus musculus with 13 samples.

Results

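The oncofetal liver genes are genes that the fetal liver uses, that the adult liver largely silences, and that return in regenerating, injured or malignant liver. The 9 members are named genes with this known behaviour, chosen with earlier results of these data in view, and all 9 were found by Entrez identifier among the 23785 genes of the deposited count tables. They are Afp, Tff3, Gpc3, Golm1, Cd24a, Dlk1, Igf2, H19 and Igf2bp3. Liver RNA was sequenced from 13 male C57 mice that were 3 months old, 5 of them without bile duct ligation (BDL) and labelled as non treated (no BDL). Another 4 mice had BDL, surgery that closes the common bile duct and so causes cholestasis and fibrosis, and received the control oligonucleotide miR-Control (miR-Ctrl BDL). The last 4 mice had BDL and received anti-miR-873-5p, a hairpin inhibitor of the microRNA miR-873-5p (anti-miR-873-5p BDL). Both oligonucleotides were injected into the tail vein at 60 µg per mouse on days 3 and 5 after surgery, and the livers were taken on day 7. The no BDL mice differ from both other groups in the surgery and in the injections, so these cannot be told apart. The study asked what BDL does to the liver and whether blocking the microRNA alters it.

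Alpha-fetoprotein is the main plasma protein of the fetus, made by hepatoblasts and yolk sac from a gene next to that of albumin, and its transcription is shut down around birth. Glypican-3 is a proteoglycan anchored to the cell surface, GOLM1 is a Golgi membrane protein that is shed into serum, and all 3 are used as serum or tissue markers of hepatocellular carcinoma. H19 and Igf2 are neighbouring imprinted genes, expressed from opposite parental alleles in the fetus, of which Igf2 encodes a growth factor and H19 a long non-coding RNA. In the adult liver, bile duct cells, mesothelial cells of the capsule and progenitor-like cells carry some of these transcripts, so that a change in a whole liver can come from several cell types.

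The inhibited microRNA is shown first, with the microRNAs that lie inside H19 and Igf2, because the first is the target of the treatment and the others are made from loci of members. Mature sequences are those of RefSeq on GRCm38.p6, with the seed (bases 2 to 8) in capitals.
mmu-miR-873a-5p: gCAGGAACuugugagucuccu
mmu-miR-675-5p: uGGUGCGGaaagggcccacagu
mmu-miR-483-5p: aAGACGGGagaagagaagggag
The 3 seeds differ from each other. The first lies at chr4:36668556-36668576, the second at chr7:142577112-142577133 within H19, and the third at chr7:142654968-142654989 within Igf2, all on the minus strand. The complement of the miR-873-5p seed, GTTCCTG in DNA letters, was searched on the sense strand after the stop codon of 1 transcript of each of the 8 coding members and in the longest H19 transcript, and 0 matches were found. Of 20997 genes, 14.1% held it. The absence of these letters says nothing of other kinds of pairing.

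The promoters of Afp and Gpc3 are shown because these hepatocellular carcinoma markers differed most in the size of their response to BDL among the 5 members that rose. They run from 250 bases before to 50 after the RefSeq start, at chr5:90490464-90490763 on the plus strand and at chrX:52613925-52614224 on the minus strand of GRCm38.p6. Capitals mark the motif searched on both strands, the TATA box letters TATAAA.
Afp promoter: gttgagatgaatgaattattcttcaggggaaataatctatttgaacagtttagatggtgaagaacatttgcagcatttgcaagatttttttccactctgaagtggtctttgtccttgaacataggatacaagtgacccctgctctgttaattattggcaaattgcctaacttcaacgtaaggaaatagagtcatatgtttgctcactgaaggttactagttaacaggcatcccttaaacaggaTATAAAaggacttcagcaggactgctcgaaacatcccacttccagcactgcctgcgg
Gpc3 promoter: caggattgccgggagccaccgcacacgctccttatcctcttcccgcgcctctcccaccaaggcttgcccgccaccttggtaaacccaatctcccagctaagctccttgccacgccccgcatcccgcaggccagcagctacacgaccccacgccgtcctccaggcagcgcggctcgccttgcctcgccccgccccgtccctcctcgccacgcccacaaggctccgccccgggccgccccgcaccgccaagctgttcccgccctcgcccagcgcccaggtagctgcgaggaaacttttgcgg
The Afp window holds 1 match and 3 CpG dinucleotides, the Gpc3 window holds 0 matches and 30 CpG, and the Golm1 window, which is not printed, holds 1 match and 30 CpG. Of 32851 promoters of this length, 13.6% hold TATAAA, and the median number of CpG is 7. RefSeq entries matched 6 of the 9 members, all but H19, Tff3 and Cd24a.

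Counts of reads per gene came in 3 tables, 1 for each pair of groups. Depth was 12185333 to 19689037 reads counted per mouse in the table of miR-Ctrl BDL and no BDL, and ranged over 12857186 to 19385430 where anti-miR-873-5p BDL was paired with no BDL. The table of both BDL groups held 13483226 to 15163990 reads per mouse, with only mice 1, 2 and 4 of miR-Ctrl and only mice 1, 3 and 4 of anti-miR-873-5p. Values below are CPM of edgeR's effective libraries (normalized counts), computed within each table, so a mouse has a different value in each table and values are compared only within a table. Log2 fold changes, their standard errors (SE) and adjusted p-values come from edgeR's quasi-likelihood test over all genes of a table that passed its filter on low counts.

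The 2 mice left out of the third table stood apart. The mean correlation over genes with the other mice of its group was 0.926 for mouse 3 of miR-Ctrl BDL and 0.927 for mouse 2 of anti-miR-873-5p BDL, against 0.950 to 0.962 for the other BDL mice and 0.965 to 0.977 for the no BDL mice. The log2 fold changes of the called members are given with and without the mouse of their BDL group that stood apart.

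Of the 9 members, 5 were higher in miR-Ctrl BDL than in no BDL, namely Gpc3, H19, Golm1, Cd24a and Afp, by 2.01-fold to 30.8-fold. Tff3 did not pass the test, and Igf2, Dlk1 and Igf2bp3 had too few reads to enter it. Of all 13072 genes tested, 35.7% were called in either direction and 19.1% were called higher. In each of the 5 members every BDL mouse lay above every no BDL mouse, as did 14.8% of all genes tested. The 5 were named by their call on these same values, so this adds no separate evidence about them. The 6 members tested had a median log2 fold change of 2.99, against -0.01 over all genes. In anti-miR-873-5p BDL, which was compared with the same 5 no BDL mice, 4 members were higher, Gpc3, H19, Cd24a and Golm1, by 6.35-fold to 40.3-fold, in a comparison in which 21.5% of 13130 genes were called and 13.1% were called higher. These 4, named by their call in the same way, did not overlap with no BDL, and 10.1% of all genes were likewise higher without overlap. The median of the 6 members tested was 2.85, against -0.01 over all genes. Both medians leave out Igf2, Dlk1 and Igf2bp3, and Gpc3 and H19 passed the filter only through their reads in BDL mice. Without the filter, Igf2, Dlk1 and Igf2bp3 had -0.46, 3.71 and -0.16 (log2) in miR-Ctrl BDL. With the inhibitor they had 0.60, 1.43 and 0.75. The medians describe the members tested and not all 9. Between the BDL groups 0 of the 6 members tested were called, as were 0% of 13746 genes, while 1 of the 6 had an unadjusted p under 0.05 and the DESeq2 Wald test called 1. Without the 2 mice that stood apart the counts of members called stayed at 5 and 4. In bulk tissue, more cells of a type and more RNA per cell cannot be told apart.

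**Figure D1:**
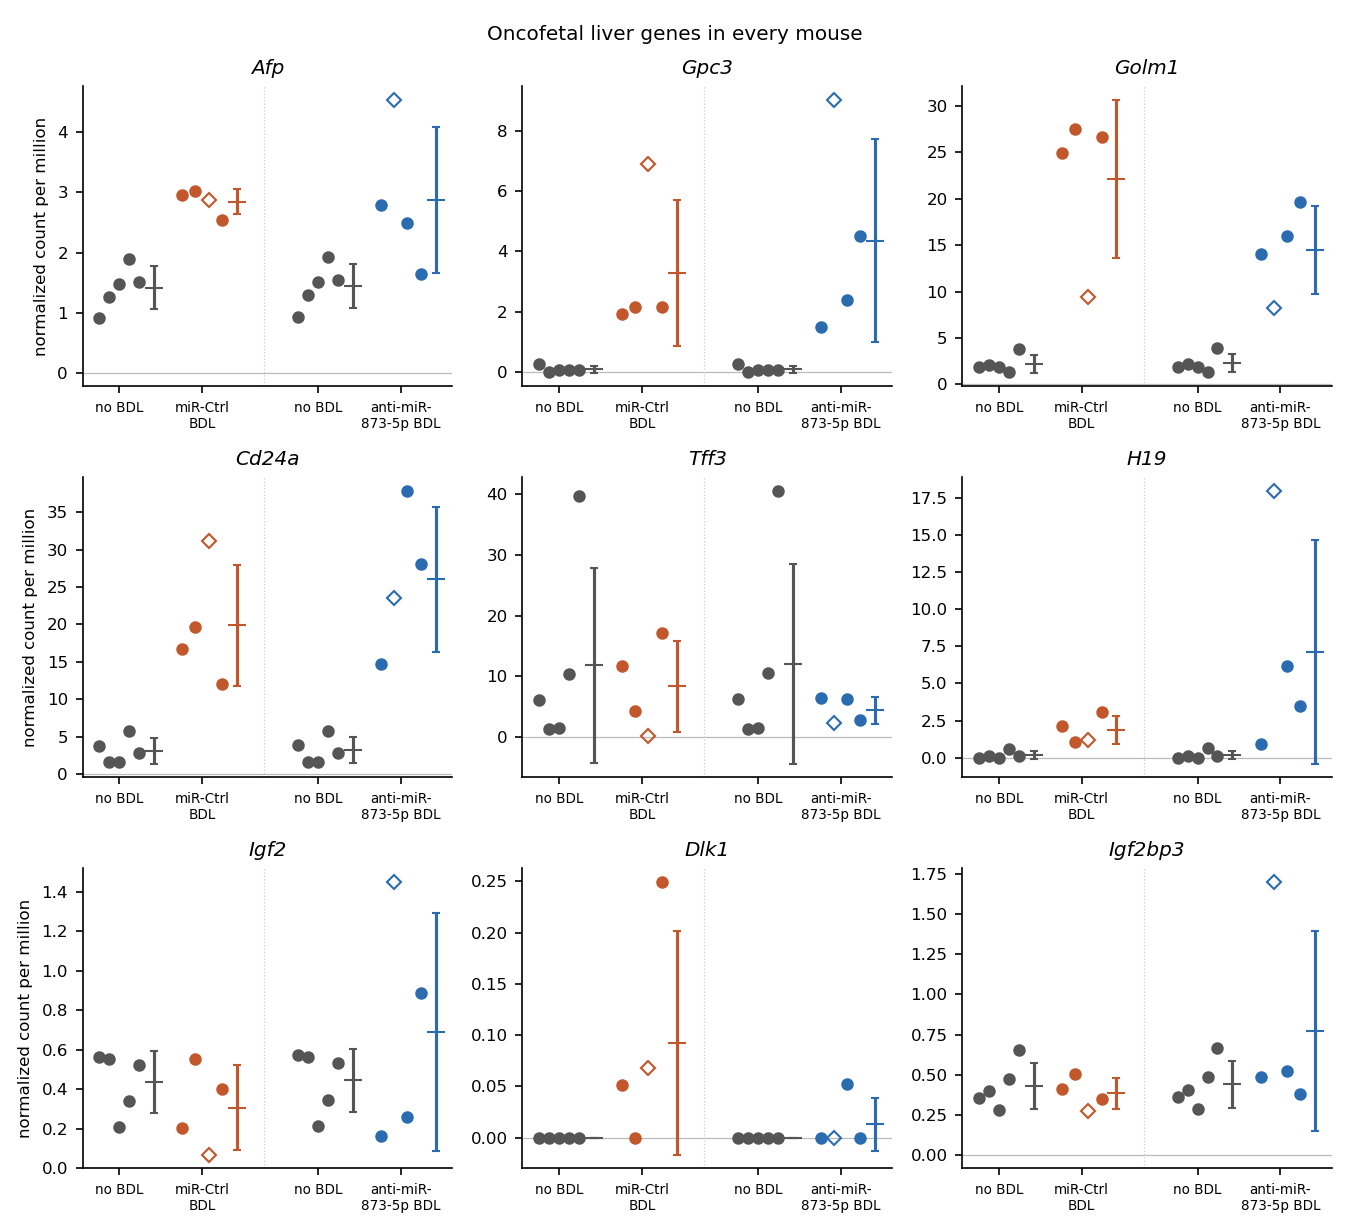
Normalized counts (CPM; y axis, linear) of the 9 members in every mouse, in the table of miR-Ctrl BDL and no BDL (left of the dotted line) and in the one with anti-miR-873-5p BDL and no BDL (right). Points are mice, open diamonds are mouse 3 of miR-Ctrl and mouse 2 of anti-miR-873-5p, and bars are mean ± SD of 4 BDL or 5 no BDL mice. Gpc3, Golm1, Cd24a and H19 lie higher in all BDL mice than in all no BDL mice, and Tff3, Igf2 and Igf2bp3 overlap.

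Among the secreted members, Afp (chr5:90490714-90508907) was low in all groups. Its normalized counts were 0.914, 1.27, 1.48, 1.90 and 1.51 in no BDL mice 1 to 5, from 13 to 28 reads, and 2.95, 3.02, 2.87 and 2.55 in miR-Ctrl BDL mice 1 to 4, from 42 to 60 reads. The 4 BDL mice lay close together and all above the no BDL mice, by 1.01 on the log2 scale (SE 0.22, edgeR adjusted p = 0.00591), and by 0.99 (adjusted p = 0.00816) without mouse 3. The anti-miR-873-5p BDL values were 2.786, 4.54, 2.499 and 1.65 in mice 1 to 4, and mouse 4 lay below no BDL mouse 4, which had 1.93 in that table. The difference of 0.98 on the log2 scale (SE 0.32) gave an edgeR adjusted p of 0.0512, and without anti-miR-873-5p mouse 2, the highest, it was 0.66 with an adjusted p of 0.0967. The call depended on the fit, since the DESeq2 Wald test gave 0.99 with an adjusted p of 0.0239, edgeR with all 3 groups in 1 fit gave an adjusted p of 0.0271, and edgeR without anti-miR-873-5p mouse 4 gave 0.0369.

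Tff3 (chr17:31125306-31129611), a small trefoil peptide secreted with mucus, had a wide spread between mice of 1 group. No BDL mice 1 to 5 had 6.12, 1.27, 1.48, 10.4 and 39.8 normalized counts, and miR-Ctrl BDL mice 1 to 4 had 11.8, 4.33, 0.205 and 17.1. Mouse 5 of the no BDL group, with 607 reads, and miR-Ctrl mouse 3, with 3 reads, were the extremes, and the groups overlapped throughout. The log2 fold change was -0.50 (SE 1.07, edgeR adjusted p = 0.751), and without no BDL mouse 5 it was 0.79 (adjusted p = 0.549). The anti-miR-873-5p BDL values were 6.43, 2.34, 6.30 and 2.75 in mice 1 to 4, within the range of the no BDL mice, with a log2 fold change of -1.44 (SE 0.91, edgeR adjusted p = 0.286), which was -0.15 (adjusted p = 0.892) without no BDL mouse 5. The summed level of 5 intestinal markers, of which Fabp2 was the most abundant, was 38.1 in no BDL mouse 5 and 68.1 to 95.3 in the other no BDL mice. The summed level of the erythroid markers, led by Hba-a2, was 1472, 492, 509, 1477 and 2701 in no BDL mice 1 to 5, in the same order as Tff3. Its lowest values in the BDL groups, 102 and 132.5, were those of miR-Ctrl mouse 3 and of mouse 2 given the inhibitor, as for Tff3. The rest of the order differed. MiR-Ctrl mouse 4, highest in Tff3, had 456 against 629 and 599 in mice 1 and 2. With the inhibitor mouse 3 had 357.5 and mouse 4 had 503, the reverse of their order in Tff3. No BDL mouse 5 was also the highest of its group in macrophage markers, at 443 against 82.0 to 219, and in neutrophil markers, at 12.9 against 4.51 to 7.37. The part of these cell types in the spread of Tff3 was not tested.

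Among the membrane proteins, Gpc3 (chrX:52272426-52613974) was almost silent without BDL and readily counted after it. No BDL mice 1 to 5 had 4, 0, 1, 1 and 1 reads, which are 0.281, 0, 0.0702, 0.0677 and 0.0655 normalized counts. MiR-Ctrl BDL mice 1 to 4 had 1.93, 2.17, 6.91 and 2.15, and the largest value was that of mouse 3. The rise was 4.94 on the log2 scale (SE 0.66, edgeR adjusted p = 0.000616), or 30.8-fold, and 4.29 (adjusted p = 0.000233) without mouse 3. In anti-miR-873-5p BDL mice 1 to 4 the values were 1.5, 9.03, 2.395 and 4.52, and mouse 2 was the highest. The rise there was 5.33 (SE 0.73, edgeR adjusted p = 0.00196), or 40.3-fold, and 4.70 (adjusted p = 0.00116) without mouse 2. The size of both folds also rests on the 7 reads of the no BDL group, 4 of them in mouse 1, without which the log2 fold changes were 5.76 and 6.15.

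Golm1 (chr13:59634996-59675784) rose in both BDL groups and was the member nearest to a difference between them. Its normalized counts were 1.90, 2.14, 1.90, 1.35 and 3.87 in no BDL mice 1 to 5, and 24.9, 27.5, 9.44 and 26.7 in miR-Ctrl BDL mice 1 to 4. All BDL mice lay above all no BDL mice, and mouse 3 lay far below the other BDL mice. The rise was 3.30 on the log2 scale (SE 0.37, edgeR adjusted p = 0.000281), or 9.88-fold, and 3.54 (adjusted p = 4.05e-05) without mouse 3. The anti-miR-873-5p BDL mice had 14.1, 8.204, 16 and 19.6, with mouse 2 the lowest, and the rise was 2.67 (SE 0.32, edgeR adjusted p = 0.00115), or 6.35-fold, and 2.84 (adjusted p = 0.000432) without mouse 2. Of the 50-base windows of its transcripts, 28% also occur in Naa35, a neighbour named here for that overlap after its values were seen, and the library kit does not mark strand. Naa35 itself gave log2 fold changes of -0.33 (adjusted p = 0.0917) and -0.29 (adjusted p = 0.174).

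Cd24a (chr10:43579169-43584265), a heavily glycosylated surface protein of immature, biliary and blood cells, rose in both BDL groups. No BDL mice 1 to 5 had 3.796, 1.58, 1.62, 5.69 and 2.82 normalized counts, and miR-Ctrl BDL mice 1 to 4 had 16.8, 19.6, 31.1 and 11.99. The lowest BDL mouse was above the highest no BDL mouse, by 2.67 on the log2 scale between the groups (SE 0.40, edgeR adjusted p = 0.00104) and by 2.36 (adjusted p = 0.00115) without mouse 3, the highest. Anti-miR-873-5p BDL mice 1 to 4 had 14.7, 23.5, 37.9 and 28.1, a rise of 3.03 (SE 0.39, edgeR adjusted p = 0.00161), or 8.18-fold, and of 3.06 (adjusted p = 0.0014) without mouse 2.

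Dlk1 (chr12:109452485-109463336), a membrane protein of the Notch ligand family that marks fetal hepatoblasts, was at the limit of detection. The 5 no BDL mice had 0 reads among 91572157, which allows up to 0.0328 CPM by the limit of 3 counts, for counting error only. MiR-Ctrl BDL mice 1 to 4 had 1, 0, 1 and 5 reads, and anti-miR-873-5p BDL mice 1 to 4 had 0, 0, 1 and 0. Kept without the filter, Dlk1 had an unadjusted p of 0.0418 (edgeR adjusted p = 0.117) in miR-Ctrl BDL, with 5 of the 7 reads of that group in mouse 4, and an unadjusted p of 0.281 (edgeR adjusted p = 0.463) with the inhibitor. Meg3, the non-coding RNA next to Dlk1 in the same imprinted cluster, had a log2 fold change of -0.00 (SE 0.35) in miR-Ctrl BDL and -0.01 (SE 0.38) in anti-miR-873-5p BDL.

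Among the imprinted and growth factor members, H19 rose in both BDL groups, whereas its neighbour Igf2 was too low to test. H19 (chr7:142575530-142578146) had 0, 1, 0, 9 and 2 reads in no BDL mice 1 to 5, or 0, 0.0791, 0, 0.609 and 0.131 normalized counts, and 2.14, 1.06, 1.16 and 3.10 normalized counts in miR-Ctrl BDL mice 1 to 4. All BDL mice were higher, by 3.42 on the log2 scale (SE 0.74, edgeR adjusted p = 0.00623), or 10.7-fold, and by 3.57 (adjusted p = 0.00466) without mouse 3. Anti-miR-873-5p BDL mice 1 to 4 spread over a wider range, with 0.911, 18.0, 6.20 and 3.46, and mouse 2 was the highest of all 13 mice in reads. The rise was 5.31 (SE 1.02, edgeR adjusted p = 0.00748), or 39.7-fold, and 4.29 (adjusted p = 0.00706) without mouse 2. No BDL mouse 4 held 9 of the 12 reads of its group, and without it the log2 fold changes were 4.95 and 6.85. The 50-base windows that H19 shares with other genes, 2.96% of its own, occur in its own microRNA gene Mir675 and in the predicted genes Gm27483 and Gm27786.

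Igf2 (chr7:142650768-142666816) stayed near the detection limit in every group. The reads were 8, 7, 3, 5 and 8 in no BDL mice 1 to 5, 4, 11, 1 and 8 in miR-Ctrl BDL mice 1 to 4, and 3, 23, 5 and 21 in anti-miR-873-5p BDL mice 1 to 4. The groups overlapped, and anti-miR-873-5p mice 2 and 4 were the highest. Kept without the filter, Igf2 had a log2 fold change of -0.46 (SE 0.52, edgeR adjusted p = 0.537) and 0.60 (SE 0.60, edgeR adjusted p = 0.52). Of its 50-base windows, 62.1% also occur in the overlapping genes Gm49394 and Igf2os, so even these reads are uncertain. Igf2bp3 (chr6:49085218-49215469), a fetal RNA-binding protein that binds Igf2 and other messages, had 5, 5, 4, 7 and 10 reads in no BDL mice, 8, 10, 4 and 7 in miR-Ctrl BDL mice and 9, 27, 10 and 9 in anti-miR-873-5p BDL mice. Mouse 2 of the anti-miR-873-5p group was the highest, and without the filter the log2 fold changes were -0.16 (SE 0.37, edgeR adjusted p = 0.776) and 0.75 (SE 0.51, edgeR adjusted p = 0.352). Its counts in the third table were a little different for the same mice, for example 7 instead of 8 reads in miR-Ctrl mouse 1, and 18.1% of its windows also occur in Malsu1.

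Per kilobase of exon, levels of the members spread widely in no BDL livers. The mean was 24.0 ± 32.6 (SD, n = 5) normalized counts per kilobase for Tff3, 1.20 ± 0.665 for Cd24a, 0.504 ± 0.217 for Golm1, 0.419 ± 0.107 for Afp, 0.0765 ± 0.0273 for Igf2, 0.0666 ± 0.104 for H19, 0.0529 ± 0.0176 for Igf2bp3, 0.0360 ± 0.0398 for Gpc3 and 0 for Dlk1. Of neighbours in this order, only Afp and Igf2 had ranges of mean ± SD that did not overlap. In miR-Ctrl BDL the order became Tff3 at 16.9 ± 15.3 (SD, n = 4), Cd24a at 7.70 ± 3.15, Golm1 at 5.00 ± 1.93, Gpc3 at 1.22 ± 0.897, Afp at 0.846 ± 0.0622, H19 at 0.758 ± 0.388, Igf2 at 0.0536 ± 0.0374, Igf2bp3 at 0.0470 ± 0.0119 and Dlk1 at 0.0163 ± 0.0193. Gpc3 and H19 left the group of barely detected transcripts, whereas Igf2, Igf2bp3 and Dlk1 stayed in it. Between neighbours, only Golm1 and Gpc3, and H19 and Igf2, had ranges of mean ± SD that did not overlap. In anti-miR-873-5p BDL Cd24a was first, at 10.1 ± 3.75 (SD, n = 4), before Tff3 at 9.03 ± 4.49, Golm1 at 3.27 ± 1.08, H19 at 2.90 ± 3.07, Gpc3 at 1.62 ± 1.25 and Afp at 0.852 ± 0.361.

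Mice of a BDL group did not have all members high together. Both mice that stood apart were the highest of their group in Gpc3 and the lowest in Golm1 and Tff3. Golm1 is read here beside a sum of 11 cholangiocyte markers, which was 58.8 to 132 normalized counts in no BDL mice and 1037, 1496, 425 and 957 in miR-Ctrl BDL mice 1 to 4, with 8 of the 9 markers tested called higher in each BDL group. With 1 mouse left out this count stayed at 8 in miR-Ctrl BDL and was 5 to 9 with the inhibitor, the lowest without mouse 3 and the highest without mouse 2. In anti-miR-873-5p BDL mice 1 to 4 the cholangiocyte sum was 1078, 217, 1193 and 1476, so that the mouse lowest in Golm1 was lowest in this sum too. The same mice were lowest in the summed stellate cell and fibroblast markers, at 169 against 299 to 569 in the other miR-Ctrl BDL mice and at 110 against 457 to 720 in the others given the inhibitor, so this order is shared by both cell types. The cholangiocyte sum was mostly Spp1, with a mean of 899 ± 440 (SD, n = 4) in miR-Ctrl BDL. Mesothelial markers, beside which Gpc3 is read, summed to 0.459 to 1.69 in no BDL mice, to 18.1, 22.9, 51.1 and 38.7 in miR-Ctrl BDL mice and to 23.4, 45.3, 25.9 and 42.9 in anti-miR-873-5p BDL mice. The highest mouse of each BDL group was the same as for Gpc3. The intestinal markers were highest in the same mice, at 100.2 against 16.02 to 27.0 in the other miR-Ctrl BDL mice and at 114 against 28.5 to 31.9 in the others given the inhibitor. All 5 mesothelial markers, among them Krt19 of the cholangiocyte list, were called higher in both BDL groups. The most abundant of them, Msln, went from 1 read in the 5 no BDL mice to 935 and 981 reads in the BDL groups. The part of these cell types in the rise of Golm1, Gpc3, Cd24a and H19 was not tested.

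**Figure D2:**
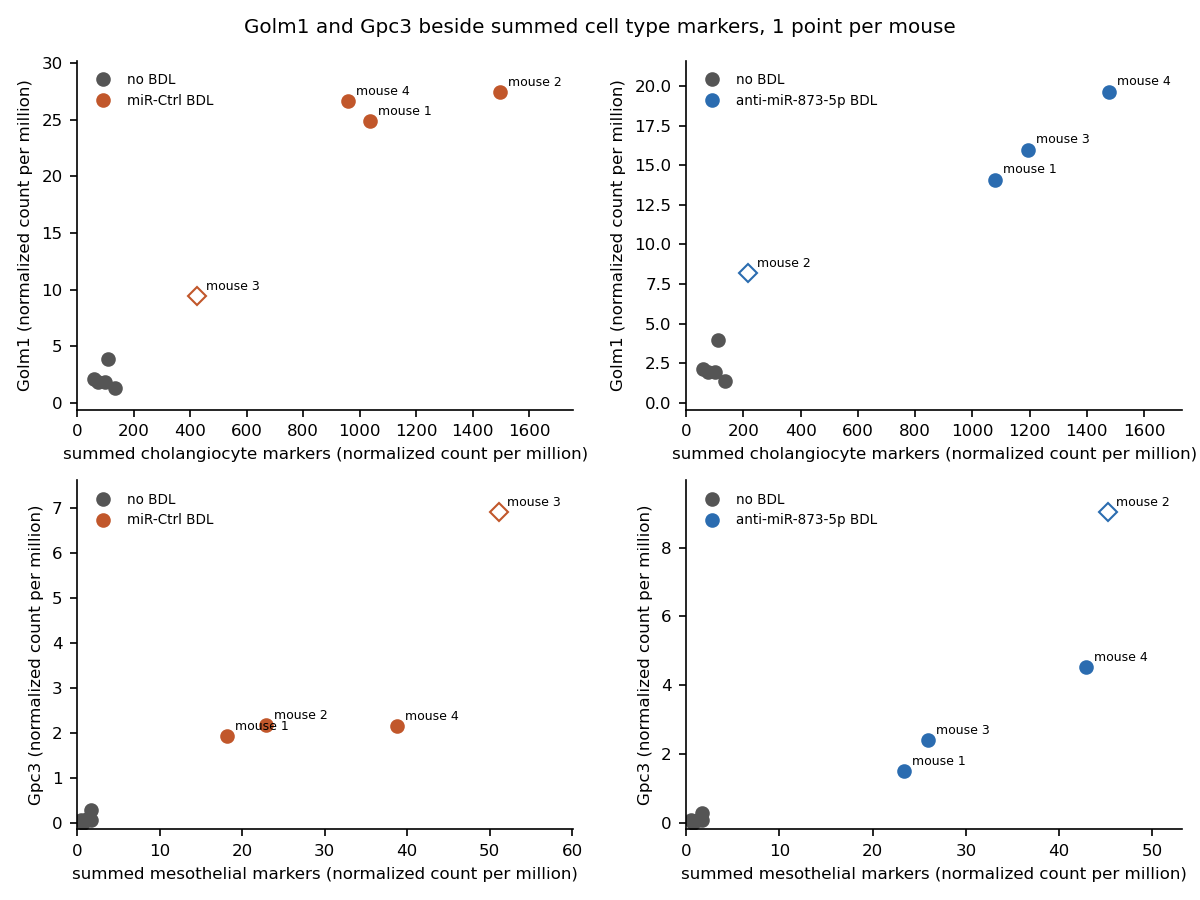
Normalized counts (CPM) of Golm1 against the summed cholangiocyte markers (top) and of Gpc3 against the summed mesothelial markers (bottom), in the tables with miR-Ctrl BDL (left) and anti-miR-873-5p BDL (right). Each point is 1 mouse, open diamonds are mouse 3 of miR-Ctrl and mouse 2 of anti-miR-873-5p, which are lowest in Golm1 and highest in Gpc3 within their BDL group, and no line is fitted.

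Counts of markers of other cell types are read against 19.1% and 13.1% of all genes called higher, and 16.6% and 8.44% called lower, in miR-Ctrl BDL and with the inhibitor. Of 9 stellate cell and fibroblast markers, 5 and 4 were called higher in miR-Ctrl BDL and in anti-miR-873-5p BDL, and the sum, led by Col3a1, went from 89.1 ± 18.2 (SD, n = 5) to 349 ± 167 (n = 4) and from 90.8 ± 18.6 to 465 ± 260. With 1 mouse left out the counts were 3 to 7 and 4 to 7, each highest without the mouse that stood apart, and the first was 3 without no BDL mouse 4 or miR-Ctrl mouse 1 or 2. Of 7 macrophage markers, led by Lyz2, 5 and 2 were called higher, and 5 in each comparison had an unadjusted p under 0.05. These calls were unstable, at 3 to 7 and 0 to 6 with 1 mouse left out, both highest without no BDL mouse 5, the first lowest without miR-Ctrl mouse 2, and the second 0 without any 1 of no BDL mice 1 to 4 or of mice 3 and 4 given the inhibitor. Without the mouse that stood apart they were 6 and 3. Neutrophil markers, of which S100a9 was the most abundant, summed to 170 in miR-Ctrl mouse 3 to 13.02, 21.5 and 49.4 in the other miR-Ctrl BDL mice and to 4.51 to 12.9 in the no BDL mice of that table. With the inhibitor they summed to 11.4 to 49.1, against 4.595 to 13.2 in no BDL. Of those tested, 3 of 4 and 2 of 3 were called higher, and with 1 mouse left out the first count stayed at 3 and the second was 0 to 2, 0 without any 1 of no BDL mice 1 to 4 or mouse 4 given the inhibitor. Of 10 hepatocyte markers, led by Alb, 6 and 3 were called lower, with Apoa1 and Ass1 of the 6 changing sign by library size, and their sum was 111700 ± 5928 in no BDL and 56750 ± 12300 in miR-Ctrl BDL, so the tissue carried its defining markers in all groups. Erythroid markers gave 2 of 4 and 1 of 6 called lower, exocrine pancreas markers 2 of 3 in both, B cell markers 0 of 1 and 1 of 2, and intestinal markers 0 of 2 in both, which are too few to set apart from these shares. With 1 mouse left out the erythroid count with the inhibitor was 0 to 2, the B cell counts were 0 to 1 and the pancreas count with the inhibitor was 1 to 2, and without mouse 2 of that group 5 hepatocyte markers were called lower. Their part in the values of the members was not tested.

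The comparison of the BDL groups asks what the inhibitor did on top of BDL, and it found no member called with 3 mice per group. Golm1 came nearest, with 19.96, 22.3 and 27.5 normalized counts in anti-miR-873-5p mice 1, 3 and 4 and 36.0, 39.4 and 38.5 in miR-Ctrl mice 1, 2 and 4. Among the 6 members tested it was the only one whose groups did not overlap, as was the case for 11.4% of all genes tested, so 1 of 6 is near this background. It was lower with the inhibitor by a log2 fold change of -0.70 (SE 0.13), with an unadjusted p of 0.00109 and an edgeR adjusted p of 0.757. The DESeq2 Wald test gave -0.71 with an adjusted p of 0.0189 and called 30 genes in all, 19 of them higher. With all 4 mice of each BDL group the read counts of Golm1 overlapped, at 490, 545, 138 and 534 against 263, 130, 307 and 465, and edgeR gave -0.64 with an adjusted p of 0.978. At an unadjusted p under 0.05 edgeR found 863 of 13746 genes, and its lowest adjusted p over all genes was 0.757.

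The other members tested overlapped between the BDL groups. Cd24a had 20.8, 53.0 and 39.3 normalized counts with the inhibitor and 24.3, 28.1 and 17.3 without, a log2 fold change of 0.70 (SE 0.34, edgeR adjusted p = 0.781). Tff3 had 9.11, 8.80 and 3.85 against 17.0, 6.22 and 24.7, or -1.15 (SE 0.52, edgeR adjusted p = 0.781). H19 had 1.29, 8.66 and 4.86 against 3.09, 1.52 and 4.47, or 0.71 (SE 0.65, edgeR adjusted p = 0.868), and its size rested on single mice. Leaving out 1 mouse gave 0.04 to 1.15, the lowest without mouse 3 given the inhibitor, all 4 mice of each group gave 1.91 (adjusted p = 0.978), and a block for mouse number gave -0.45 (adjusted p = 0.897). That block rests on mouse numbers 1 and 4, so mouse 3 given the inhibitor and miR-Ctrl mouse 2 do not enter its estimate. Gpc3 and Afp gave 0.41 (SE 0.39, edgeR adjusted p = 0.87) and -0.34 (SE 0.24, edgeR adjusted p = 0.834). A p that misses the threshold does not show that the groups are alike.

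**Figure D3:**
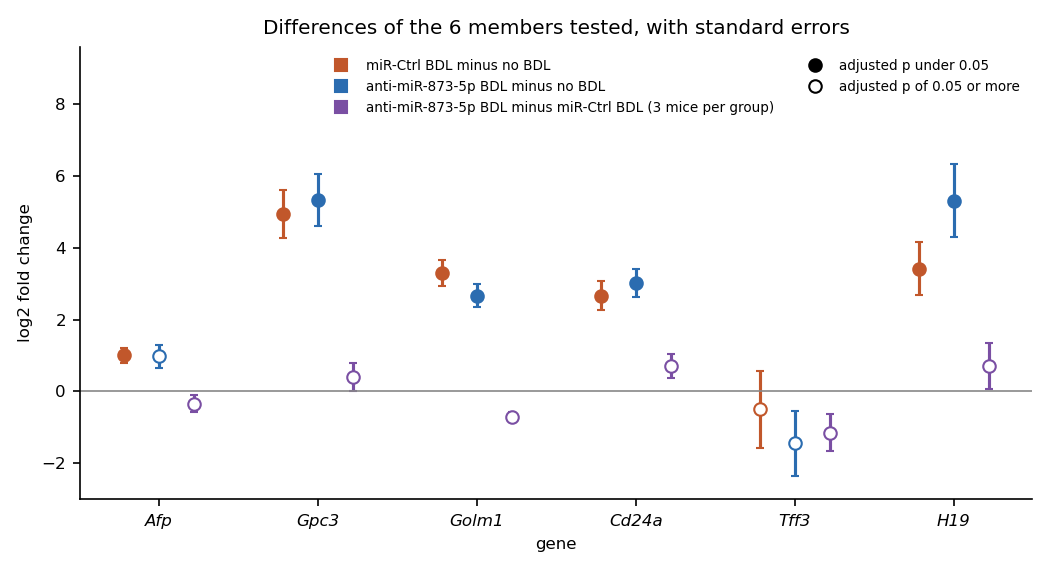
Log2 fold changes of the 6 members tested in the 3 comparisons, as points with SE from edgeR. Filled points have an adjusted p under 0.05. Gpc3, Golm1, Cd24a and H19 are filled in both comparisons with no BDL, Afp in 1, and no member is filled between the BDL groups.

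Scaling mattered for the level of all folds. Scaling by library size alone, in place of the trimmed mean of M-values (TMM), shifted the median over all genes to 0.79 (log2) in miR-Ctrl BDL and to 0.82 where mice had anti-miR-873-5p. The calls then went from 2491 higher of 4666 to 9360 higher of 9635, and from 1715 of 2823 to 10063 of 10194. The folds of Afp, Gpc3, Golm1, Cd24a and H19 stayed above that shift and were called in both groups, and Tff3 in miR-Ctrl BDL changed from -0.50 to 0.35.

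Genes that work with the members were described by lists, among the same background of 35.7% and 21.5% of genes called. The lists were written with results of these data known in part, so their counts and medians are description and lend no support. Of 15 tested genes of fetal glycolysis and other hepatoblast functions, 12 rose and 1 fell in miR-Ctrl BDL, and their median was 2.27 (log2) against -0.01 over all genes. Those with the lowest adjusted p were Anxa2, a membrane-binding annexin, at 3.63 (SE 0.34, edgeR adjusted p = 0.000124), the tetraspanin Tspan8 at 2.73 (SE 0.29), the trypsin inhibitor Spink1 at 5.91 (SE 0.63) and Pkm, the pyruvate kinase of fetal and proliferating cells, at 2.29 (SE 0.25). In anti-miR-873-5p BDL 8 rose and 1 fell, with a median of 1.59, and without mouse 2 of that group 13 rose. There Anxa2 reached 3.03 (SE 0.32, edgeR adjusted p = 0.00072), Tspan8 3.52 (SE 0.48), and the progenitor transcription factors Sox9 1.59 (SE 0.24) and Sox4 2.99 (SE 0.45). Tbx3, a transcription factor of the hepatoblast, fell by 1.67 and by 1.22 on the log2 scale. With 1 mouse left out, the number of genes of this list called lower stayed at 1 in miR-Ctrl BDL and was 0 to 1 with the inhibitor. Sox9 also stands in the cholangiocyte marker list.

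The fetal RNA-binding and chromatin genes were mostly absent. Of 9 such genes only 3 passed the filter, and Igf2bp1, Lin28a, Lin28b, Trim71 and Dppa4 had 0 reads in the no BDL mice. Igf2bp2, the relative of Igf2bp3 that adult tissues keep, rose by 1.96 in miR-Ctrl BDL (SE 0.36, edgeR adjusted p = 0.00278). With the inhibitor its rise was 1.08 (SE 0.34, edgeR adjusted p = 0.0455), and with 1 mouse left out 0 to 2 genes of this list were called higher there, 0 of them without mouse 2, 3 or 4 of that group or any 1 of no BDL mice 2 to 5. Its mean was 1.08 ± 0.524 (SD, n = 5) normalized counts in no BDL and 4.27 ± 1.41 (n = 4) in miR-Ctrl BDL. Hmga1, an architectural chromatin protein, rose by 0.97 in miR-Ctrl BDL (SE 0.22, edgeR adjusted p = 0.00786).

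In the IGF axis, 3 of 14 genes rose and 2 fell in miR-Ctrl BDL, while 3 rose and 1 fell in anti-miR-873-5p BDL. The shares called, 5 of 14 and 4 of 14, are near the 35.7% and 21.5% of all genes called, so these counts are no result about the list. Igfbp6, the binding protein that prefers the Igf2 product, went from 1 read in the 5 no BDL mice to 211 reads in the miR-Ctrl BDL mice (edgeR adjusted p = 0.000299) and to 357 reads in those given anti-miR-873-5p (edgeR adjusted p = 0.000613). Igfbp5, another binding protein, rose by 1.69 (SE 0.35) and 2.51 (SE 0.62). Igfals, which holds the circulating complex together, fell by 1.67 (SE 0.17) and 1.29 (SE 0.19) on the log2 scale, and Igfbp3 fell by 0.99 (SE 0.20) in miR-Ctrl BDL. Igf2r, the receptor that clears the Igf2 product, rose by 0.39 in miR-Ctrl BDL (SE 0.11, edgeR adjusted p = 0.0183), and in anti-miR-873-5p BDL Igfbp7 rose by 0.96 (SE 0.28, edgeR adjusted p = 0.0389). Without the mouse that stood apart, 5 and 3 genes fell and 4 and 3 rose. With any 1 mouse left out, 2 to 4 genes rose in miR-Ctrl BDL and 1 to 5 with the inhibitor, the fewest without no BDL mouse 1 or 2 or mouse 4 of that group and the most without its mouse 1.

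Of 11 other imprinted growth genes tested, Igf2r rose and Slc38a4, an amino acid transporter, fell by 0.92 in miR-Ctrl BDL (SE 0.19, edgeR adjusted p = 0.00481). With the inhibitor 1 gene, the matrix proteoglycan Dcn, rose by 0.57 (SE 0.18, edgeR adjusted p = 0.0491). The medians were 0.39 and 0.28, against -0.01 over all genes in both comparisons. Without the mouse that stood apart 5 and 3 genes were called higher, and with any 1 mouse left out 0 to 5 and 0 to 3. In the families of the members, Casc4, the relative of Golm1, was lower by TMM scaling at -0.47 (SE 0.14, edgeR adjusted p = 0.0223) in miR-Ctrl BDL but at 0.33 by library size. In anti-miR-873-5p BDL 0 of 5 were called by edgeR and by DESeq2, with 1 at an unadjusted p under 0.05. Without the mouse that stood apart, 1 was called higher and 2 lower in miR-Ctrl BDL, and 2 higher and 1 lower with the inhibitor.

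Of the regulators of Afp, 5 of 13 were called lower and 1 higher in miR-Ctrl BDL by TMM scaling, and Foxa1 and Foxa2 were among those that changed sign by library size. Cebpa, a factor of mature hepatocytes, fell by 1.11 on the log2 scale (SE 0.16, edgeR adjusted p = 0.000944), whereas Trp53, a repressor of Afp, rose by 0.50 (SE 0.08, edgeR adjusted p = 0.0011). Foxa2, an activator of liver genes, was lower by TMM at -0.71 (SE 0.14) and at 0.10 by library size. In anti-miR-873-5p BDL 4 were called lower, but 0 to 3 regulators were when any 1 mouse was left out. Of these, Onecut1 was at -1.78 (SE 0.48, edgeR adjusted p = 0.0276), and Cebpa at -0.76, Foxa1 at -0.62 and Foxa2 at -0.56 turned positive by library size, at 0.07, 0.22 and 0.29. Zhx2 and Zbtb20, which keep Afp silent after birth, had log2 fold changes of 0.42 (SE 0.20, edgeR adjusted p = 0.135) and 0.32 (SE 0.26, edgeR adjusted p = 0.369) in miR-Ctrl BDL. In the albumin family Afm, the vitamin E binding neighbour of Afp, fell by 1.49 (SE 0.45, edgeR adjusted p = 0.026) and 1.54 (SE 0.46, edgeR adjusted p = 0.0392), and Alb had -0.80 (SE 0.34, edgeR adjusted p = 0.0931) and -0.82 (SE 0.40, edgeR adjusted p = 0.168) in the same comparisons. Afm was not called without no BDL mouse 1 or 2 in either, nor without miR-Ctrl mouse 2 in the first, nor without no BDL mouse 3 or 4 or mouse 3 or 4 given the inhibitor in the second. Between the BDL groups 0 genes of these lists were called by edgeR and by DESeq2, with up to 2 genes of a list at an unadjusted p under 0.05.

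**Figure D4:**
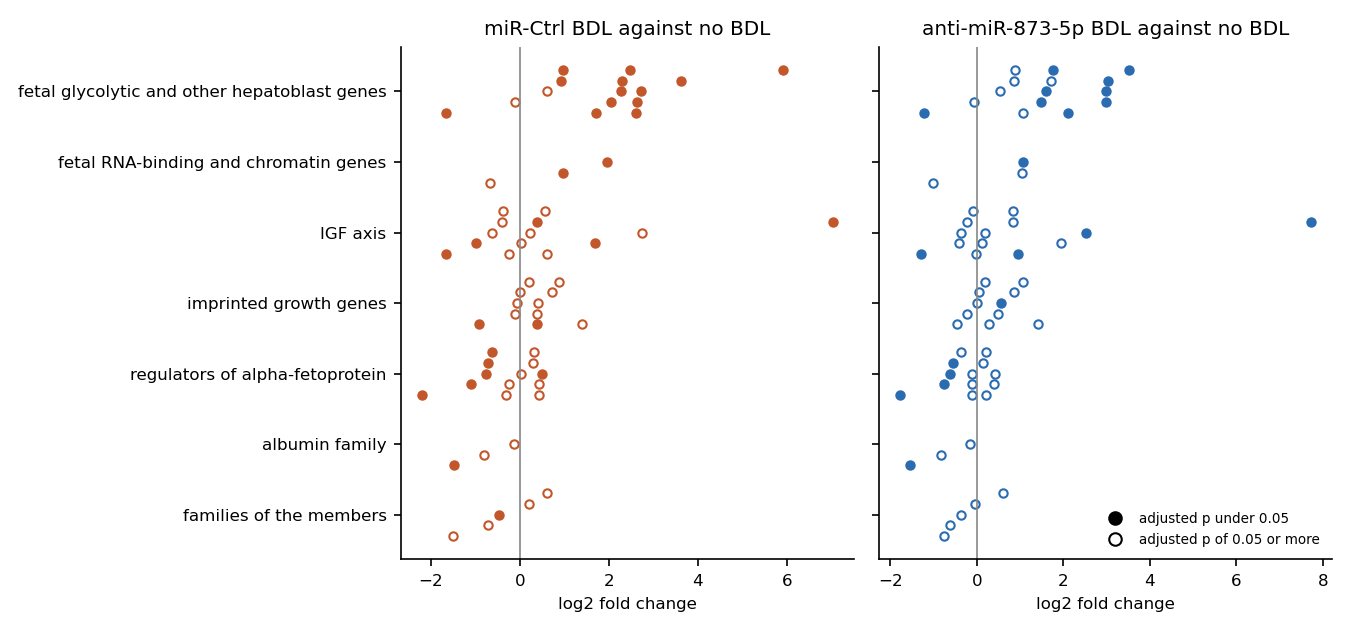
Log2 fold changes (x axis) of the tested genes of 7 lists (y axis) in miR-Ctrl BDL and in anti-miR-873-5p BDL, each against no BDL; filled points have an edgeR adjusted p under 0.05 and points are spread vertically to be seen. The hepatoblast list holds the most filled points to the right, 12 and 8; by library size Foxa1, Foxa2 and Casc4 on the left, and Cebpa on the right, change sign among the filled points, as do Foxa1 and Foxa2 on the right.

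The genes with a pattern most like each member, by the mean absolute difference in log2 level relative to no BDL over the 8 BDL mice among 12866 genes, were Tgfbr2 and Aprt for Afp at 0.10 and 0.15, Igdcc4 and Cd63 for Gpc3 at 0.37 and 0.41, and Gprc5a and Slc13a5 for Cd24a at 0.17 and 0.29. For Golm1 they were Uap1l1 and Gm19705 at 0.34 and 0.35, and for Tff3 the interferon-induced pair Apol9a and Apol9b at 0.41 and 0.43. H19 had no close partner, with Nbl1 and Lrtm2 at 0.84 and 0.88.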

How the data were processed

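Liver RNA of 13 mice was sequenced as single reads of 50 nt after TruSeq RNA v2 library preparation, and the authors mapped the reads to mm10 with TopHat. The submitters' processing notes also name CASAVA 1.8.2, FastQC, Trim Galore and DESeq2. The authors deposited raw counts of reads per Entrez gene in 3 tables, 1 per comparison; the counting program and its annotation are not given in the sources used here, and the tables gave the same counts for 22246 of 23019 shared genes. Groups were taken from the sample labels, and 0 columns were left out. The authors' methods state that outliers were filtered, and the table of the BDL groups holds 3 mice per group.

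Symbols were found for 23709 of 23785 identifiers. In R 4.3.3, genes passing filterByExpr were scaled by TMM and compared by the quasi-likelihood test of edgeR 4.0.16. P-values were adjusted by Benjamini-Hochberg over all genes tested, with a threshold of 0.05. Each SE was taken from the F statistic, as the size of the log2 change over the root of F. DESeq2 1.42.0 was an alternative, as were other scalings and filters, 1 fit of all groups, a block for mouse number, and leaving out each mouse. Fits were tested on simulated data. P-values measure the spread between mice of 1 experiment. Shared windows were counted in GENCODE M21 transcripts, and coordinates are those of RefSeq on GRCm38.p6. The members and lists were chosen with earlier results of these data known. Named genes are the members, the up to 4 genes of each list with the lowest adjusted p among those called in a comparison with no BDL, partners, receptors or regulators of members, the most abundant markers, and the 2 genes most like each member. Counts of list genes under the alternatives were added after seeing the data. Some genes of these lists are not reported here by name.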

Additional observations from a re-analysis of the deposited data

Results flagged for a closer look

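In a test of 25 pairs of a member and a group for 1 mouse far from the others (Dixon's test at 95%, which flags about 1 group in 20 by chance), 6 stood out. Gpc3 in miR-Ctrl BDL mouse 3 was 6.906 normalized counts, against 2.167 in the next mouse, and Golm1 in the same mouse was 9.436, against 24.92 in the next lowest. Tff3 in no BDL mouse 5 was 39.77, against 10.43. Igf2bp3 in anti-miR-873-5p BDL mouse 2 was 1.704, from 27 reads, against 0.5206. H19 in no BDL mouse 4 was 0.6094, from 9 reads, against 0.131, and Gpc3 in no BDL mouse 1 was 0.2812, from 4 reads, against 0.07023. Both of the last rest on few reads. The cause was not tested for any of them.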

How the results depend on the processing

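Of the log2 fold changes of members under the alternatives, 99, 97 and 87 kept their direction and side of the threshold. These counts are for miR-Ctrl BDL against no BDL, for the inhibitor against no BDL, and for the BDL groups against each other. Direction reversed in 3, 1 and 2, and 0, 4 and 1 passed the threshold only under the alternative. The alternative threshold of 0.1 reuses the main fit, and its 6 values per comparison were still labelled at 0.05. Those values could not change and are among the ones kept, so part of each count was fixed in advance. Called members kept their call under every alternative run. Tff3 against no BDL reversed to 0.3491 (library size), 0.7938 (without no BDL mouse 5) and 0.6121 (block) in miR-Ctrl BDL, and to 0.1505 (block) in anti-miR-873-5p BDL. Leaving out 1 mouse moved Tff3 over -1.1103 to 0.7938 in miR-Ctrl BDL and over -1.7577 to -0.1470 in anti-miR-873-5p BDL, both highest without no BDL mouse 5. Between the BDL groups H19 reversed to -0.4479 with the block and Gpc3 to -0.1313 without anti-miR-873-5p mouse 4, in a range of -0.1313 to 0.6968 over mice left out. Genes called became 9635 and 10194 by library size. Leaving out 1 mouse gave 1261 to 4317 genes in anti-miR-873-5p BDL, the highest without mouse 2, 3775 to 5710 in miR-Ctrl BDL, and 0 to 1 between the BDL groups. Members called were then 4 to 5, 5 and 0. DESeq2 called 30 genes and 1 member, Golm1, between the BDL groups; the cause was not tested.

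No source says that equal mouse numbers mark pairs. Their deviations correlated from -0.0837 to 0.0360 and from -0.1884 to 0.0630 in the comparisons with no BDL, and by 0.5354 and 0.2191 for numbers 1 and 4 of the BDL groups. With mouse number as a replicate block, 4063, 2195 and 0 genes and 5, 4 and 0 members were called, and the block leaves no BDL mouse 5, the only one of its number, out of the estimate. Between the BDL groups the estimate of the block rests on numbers 1 and 4 alone. Low counts limit Igf2, Dlk1 and Igf2bp3, which have no value in most fits, and the folds of Gpc3 and H19, whose no BDL groups hold 7 and 12 reads.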
